A study of Homo sapiens with 8 samples.

Results

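The 6 genes of the ISG15 conjugation machinery, ISG15, UBA7, UBE2L6, HERC5, HERC6 and USP18, were taken by symbol from the 60664 genes of the RNA-seq table, and each had a single row. They were measured in THP-1 cells, a human acute monocytic leukemia line, either parental or DAC-resistant. DAC (decitabine) is a nucleoside drug that, once built into DNA, traps DNA methyltransferases and so reduces methylation. The resistant line had been made from THP-1 by long-term culture with DAC, and whether it is a single clone is not given in the sources used here. Parental cells were given DMSO or 1 µM DAC for 6 days, and DAC-resistant cells the same, with 2 biological replicates in each of 4 groups and 8 libraries in all. Both lines are labelled wild type. Because of how it was made, the resistant line with DMSO is a cell population with earlier DAC exposure and not an untreated control.

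ISG15 is a ubiquitin-like protein that interferon induces and that is joined to other proteins in a cascade like that of ubiquitin. UBA7 is the activating enzyme (E1), UBE2L6 the conjugating enzyme (E2), and HERC5 the main human ligase (E3), which works on newly made proteins at the ribosome. HERC6 is the HERC family member next to HERC5 and the main ISG15 ligase of the mouse. USP18 takes ISG15 off its targets and, apart from that activity, blocks signalling from the type I interferon receptor. Interferon acts on such genes through transcription factors, STAT2 and IRF9 among them, that act at the interferon-stimulated response element (ISRE).

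In GENCODE annotation of GRCh38, ISG15 (ENSG00000187608) lies on chr1:1001138-1014540, plus strand, and USP18 (ENSG00000184979) on chr22:18150118-18177397, plus strand. UBA7 (ENSG00000182179) lies on chr3:49805209-49813953 and UBE2L6 (ENSG00000156587) on chr11:57551656-57568284, both on the minus strand. HERC6 (ENSG00000138642) at chr4:88378739-88443097 and HERC5 (ENSG00000138646) at chr4:88457119-88506163 follow each other on the plus strand, 14.0 kb apart. The promoters of this pair and of ISG15 are shown because the 3 genes moved differently between the lines. The 250 bases before the RefSeq start (GRCh38.p14, plus strand) are given 5′ to 3′, and capitals mark each match to the ISRE core GAAANNGAAA on either strand.
ISG15, chr1:1013247-1013496: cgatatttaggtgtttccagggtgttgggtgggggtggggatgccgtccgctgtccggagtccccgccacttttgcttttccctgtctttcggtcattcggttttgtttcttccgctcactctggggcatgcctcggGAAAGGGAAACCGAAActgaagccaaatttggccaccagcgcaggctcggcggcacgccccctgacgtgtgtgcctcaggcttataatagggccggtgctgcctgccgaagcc
HERC5, chr4:88456869-88457118: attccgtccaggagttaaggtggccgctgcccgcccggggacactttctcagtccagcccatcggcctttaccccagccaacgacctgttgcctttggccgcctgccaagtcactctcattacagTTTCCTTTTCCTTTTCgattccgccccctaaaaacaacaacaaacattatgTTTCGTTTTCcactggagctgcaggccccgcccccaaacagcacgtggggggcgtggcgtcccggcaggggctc
HERC6, chr4:88378602-88378851: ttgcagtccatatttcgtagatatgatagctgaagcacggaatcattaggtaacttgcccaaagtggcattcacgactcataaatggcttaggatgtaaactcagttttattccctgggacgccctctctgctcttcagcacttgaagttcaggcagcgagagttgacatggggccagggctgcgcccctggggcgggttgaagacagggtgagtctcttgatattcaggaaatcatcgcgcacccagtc

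The window searched ran from 250 bases before to 50 after the start. ISG15 held 2 overlapping ISRE cores on the strand of the gene, at -113 to -104 and -107 to -98 from the start. HERC5 held 3 on the opposite strand, at -125 to -116, -119 to -110 and -74 to -65, of which the first pair overlap. The same letters were not found in the window of HERC6 or in either of the 2 windows of UBE2L6. Of 35116 RefSeq windows of this length, 3.57% held the core. The GAS core TTCNNNGAA, searched on both strands, was in no window of these 4 genes and in 7.66% of all windows. CG dinucleotides numbered 20 in the ISG15 window, 21 in HERC5, 16 in HERC6, and 32 and 41 in UBE2L6, where the median over all windows was 14. USP18 and UBA7 were not looked at in this way.

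Reads were recovered from the FPKM values and are estimates, with approximate lengths for 184 genes. Each library had 28662981 to 33353597 such reads on genes, and a member had 66 to 5485 in a library. In every library the recovered sum was above the total implied by the FPKM scaling, which was 27480502 to 31916835. All 11 monocytic markers listed for THP-1, among them PTPRC, SPI1 and CD33, were present in the line. Their summed level was 404 to 406 FPKM in parental cells with DMSO, 610 to 613 with DAC, and 253 to 263 and 280 to 288 in DAC-resistant cells with DMSO and DAC. CD14 had means of 1.52 and 19.9 FPKM in the parental DMSO and DAC groups, and 0.869 and 1.10 FPKM in DAC-resistant cells. Not all of the 11 moved this way, as CD33 had 9.83 and 7.86 FPKM in the parental groups, and FCER1G had 80.3 and 90.0 FPKM in the resistant against 74.4 and 81.4 FPKM in the parental groups. The 3 T cell markers were under 1 FPKM throughout. Of 13 markers of B and plasma, erythroid, epithelial, fibroblast and endothelial cells, 5 reached 1 FPKM in at least 2 libraries, and PECAM1, which monocytes also carry, was the highest at 13.7 to 57.3 FPKM. The fibroblast collagen COL1A1 had means of 0.667 and 4.33 FPKM in the parental DMSO and DAC groups and 6.13 and 4.48 FPKM in the resistant ones, low in the same group as HERC5, while COL1A2 had 0.00152, 0.604, 0.00154 and 0.0104 FPKM in that order of groups. The marker sum and COL1A1 moved with the groups, and their part in the results for the 6 genes was not tested. In bulk RNA, more cells with a transcript and more transcript per cell cannot be told apart.

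Levels below are FPKM, reads scaled by exon length and library total, which allow genes to be compared with each other. Changes were fitted with limma on log2(FPKM + 1), and a gene was called at an unadjusted p up to 0.01 with a change of 1 or more on that scale, up or down. Adjusted p-values are limma's, Benjamini-Hochberg over all 14899 genes tested. Fold values without a log are ratios of group means in FPKM. With 2 libraries per group an exact test of a single gene cannot give p below 0.333, so the p-values rest on the variance limma shares across genes.

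The modifier itself had the largest DAC response of the 6 genes in parental cells. ISG15 had 4.33 and 3.39 FPKM in the parental DMSO libraries and 202 and 211 FPKM with DAC. In DAC-resistant cells it had 26.8 and 25.2 FPKM with DMSO and 19.2 and 15.7 FPKM with DAC. None of the 4 groups overlapped, and the resistant cells with DMSO lay between the parental groups. DAC raised ISG15 53.6-fold in parental cells, from 3.86 ± 0.667 to 207 ± 6.12 FPKM (mean ± SD, n = 2), a log2 change of 5.42 (SE 0.116, limma adjusted p = 2.5e-07). Among the 14899 genes, ISG15 thereby went from the percentile 46.3 to 99.4 of mean level.

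The DAC-resistant cells with DMSO carried 6.74 times as much ISG15 RNA as parental cells with DMSO, at 26.0 ± 1.14 FPKM (SD, n = 2, log2 change 2.48, limma adjusted p = 8.1e-06). That level was 12.6% of the level in DAC-treated parental cells. Adding DAC to the resistant cells gave a log2 change of -0.56 (95% interval -0.83 to -0.28, limma adjusted p = 0.031), under the fold needed for a call. The adjusted p was 0.121 with no filter, 0.0912 with only the libraries compared and 0.028 to 0.144 when single libraries were left out. With DAC in both lines, ISG15 was lower in resistant cells by a log2 change of -3.50 (limma adjusted p = 1e-06).

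The E1 enzyme UBA7 had the smallest DAC response of the 6 in parental cells. Its levels were 32.0 and 31.3 FPKM in parental cells with DMSO and 40.0 and 43.9 FPKM with DAC. In DAC-resistant cells it had 20.0 and 19.9 FPKM with DMSO and 16.9 and 16.4 FPKM with DAC. All 4 resistant libraries were below all 4 parental libraries. The DAC response in parental cells was 1.32-fold, a log2 change of 0.39 (SE 0.046, limma adjusted p = 0.00047) that is under the fold for a call. UBA7 was the only member whose level was lower in resistant than in parental cells with DMSO at an adjusted p under 0.05 (log2 change -0.64, limma adjusted p = 5e-05, not called). With DAC in both lines the difference was called, at a log2 change of -1.28 (limma adjusted p = 1.5e-06), which put UBA7 in resistant cells at 39.8% of its level in parental cells.

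UBE2L6, the E2 enzyme that receives ISG15 from UBA7, had 28.8 and 29.3 FPKM in parental cells with DMSO and 85.7 and 92.1 FPKM with DAC. Its DAC-resistant libraries had 30.8 and 30.5 FPKM with DMSO and 30.8 and 29.3 FPKM with DAC. Only the parental DAC libraries stood apart from the other 6. UBE2L6 rose 3.06-fold with DAC in parental cells (log2 change 1.58, SE 0.042, limma adjusted p = 6.3e-07). No difference passed the test between the lines with DMSO, where the log2 difference was 0.07 (95% interval -0.03 to 0.17, limma adjusted p = 0.171), although TPM gave 0.15 (limma adjusted p = 0.036). The response of resistant cells to DAC was likewise bounded, at -0.03 (95% interval -0.13 to 0.07, limma adjusted p = 0.751).

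HERC5 had 0.437 and 0.575 FPKM in the parental DMSO libraries, from 66 and 83 reads, and 12.4 and 14.9 FPKM with DAC. The resistant libraries had 18.5 and 18.7 FPKM with DMSO and 13.3 and 13.2 FPKM with DAC. This ligase was thus as high in resistant cells without added DAC as in parental cells with it, or higher, and its level with DMSO was 137% of the level in DAC-treated parental cells. DAC raised HERC5 26.9-fold in parental cells (log2 change 3.28, SE 0.086, limma adjusted p = 6.3e-07). Resistant cells with DMSO exceeded parental cells with DMSO 36.8-fold (log2 change 3.70, limma adjusted p = 6.7e-07). With DAC in both lines the log2 difference was -0.03 (95% interval -0.24 to 0.18, limma adjusted p = 0.774), and the groups overlapped.

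HERC6, whose gene is the neighbour of HERC5, had 0.737 and 0.708 FPKM in parental cells with DMSO and 9.59 and 10.5 FPKM with DAC. In DAC-resistant cells it had 1.16 and 0.99 FPKM with DMSO and 1.28 and 1.6 FPKM with DAC. HERC6 was high only in the parental DAC libraries, and the resistant DMSO level was 10.7% of it. DAC raised HERC6 13.9-fold in parental cells (log2 change 2.68, SE 0.094, limma adjusted p = 2.1e-06). The difference between the lines with DMSO was 1.49-fold (log2 change 0.27, limma adjusted p = 0.0462) and was not called.

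The ratio of the paralogs put this contrast in each library. HERC5 over HERC6 was 0.593 and 0.812 in parental cells with DMSO, and 1.29 and 1.41 with DAC. In resistant cells it was 15.9 and 18.9 with DMSO, and 10.4 and 8.26 with DAC. The 4 resistant libraries did not overlap the 4 parental ones, with a mean log2 ratio of 3.66 against -0.05. The ratios in this paragraph were chosen after the values had been seen and are given as a description, with no test. ISG15 over HERC5 was 5.89 to 16.3 in the parental libraries and 1.19 to 1.45 in the resistant ones.

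USP18, the enzyme that removes ISG15, had 2.97 and 2.68 FPKM in parental cells with DMSO and 28.1 and 30.9 FPKM with DAC. The resistant libraries had 5.01 and 4.26 FPKM with DMSO and 2.98 and 4.34 FPKM with DAC, so that those groups overlapped. DAC raised USP18 10.4-fold in parental cells (log2 change 2.99, SE 0.143, limma adjusted p = 8e-06). Between the lines with DMSO the log2 difference was 0.56 (limma adjusted p = 0.0146, not called), and in resistant cells the DAC response was -0.29 (95% interval -0.63 to 0.06, limma adjusted p = 0.262). The resistant DAC libraries decided its size, as it was -0.07 without replicate 1 and -0.50 without replicate 2 of that group (limma adjusted p = 0.76 and 0.0824). ISG15 over USP18, the modifier against the enzyme that removes it, was 1.46 and 1.26 in the parental DMSO libraries and 7.20 and 6.83 after DAC. It was 5.34 and 5.91 in resistant cells with DMSO and 6.43 and 3.61 with DAC, values between those of the parental groups.

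**Figure D1:**
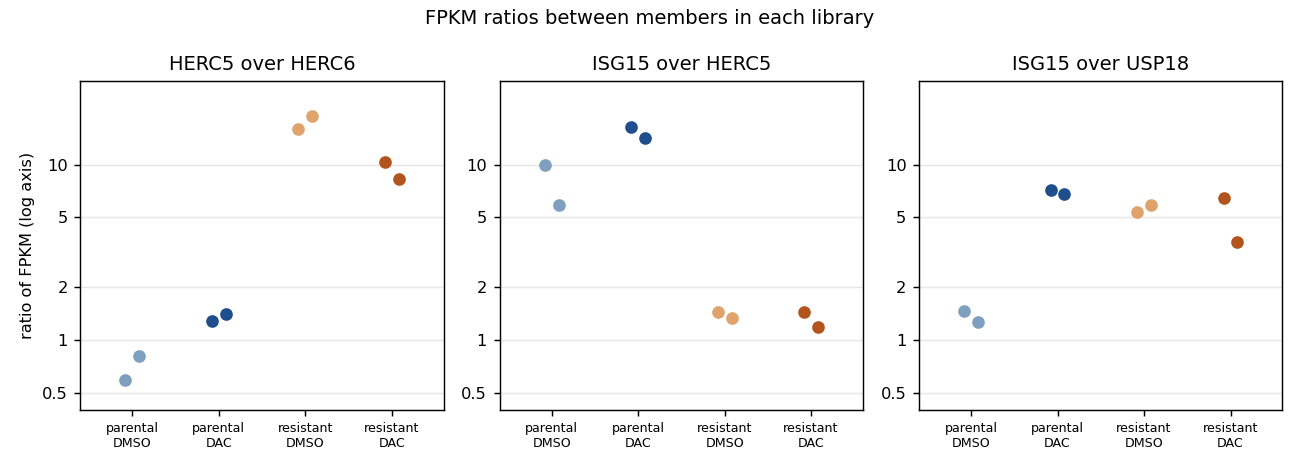
Ratios of FPKM between pairs of the 6 genes in each library (log axis, points are libraries). HERC5 over HERC6 was 8.26 to 18.9 in the resistant libraries and 0.593 to 1.41 in the parental ones.

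Across the 6 genes, DAC in parental cells called 5 raised and 0 lowered, all but UBA7. Of all genes tested, 6.66% were called raised and 2.64% lowered in that comparison. The members' median log2 change was 2.84, beside 0.06 over all genes. In DAC-resistant cells the same treatment called 0 of 6 in either direction, where 0.114% of all genes were called raised and 0.121% lowered, so that few genes of any kind were called there. At an unadjusted limma p under 0.05, 3 of the 6 were lower with DAC (ISG15, UBA7 and HERC5), beside 12.6% of all genes. HERC6 was the 1 member higher at that threshold (log2 change 0.23, 95% interval 0.01 to 0.46, limma adjusted p = 0.175), beside 14.4% of all genes. This HERC6 change was 0.33 without replicate 1 and 0.14 without replicate 2 of the resistant DAC group. With the replicate block its unadjusted limma p was 0.062, past that threshold. With voom on recovered reads, 0 of 6 were called as well. The members' median was -0.27, beside 0.01 over all genes.

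The resistant line with DMSO had 2 of the 6 genes called higher than in parental cells, ISG15 and HERC5, and 0 called lower. The shares over all genes were 4.45% higher and 4.28% lower. The other 4 had log2 differences of -0.64 to 0.56. With DAC in both lines, 5 of 6 were called lower in resistant cells, all but HERC5, and 0 higher, with 9.17% of all genes called lower and 5.29% higher. There UBE2L6 had 33.8%, HERC6 14.3%, USP18 12.4% and ISG15 8.44% of the parental level.

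The DAC effect itself was compared between the lines in a test of the difference. It was lower in resistant cells for 5 of 6 genes by the call rule, where 7.16% of all genes were called in this direction and 3.46% in the other. ISG15 differed most, by -5.98 on the log2 scale (SE 0.164, limma adjusted p = 1.5e-06). HERC5 followed with -3.73 (limma adjusted p = 2.8e-06), USP18 with -3.28, HERC6 with -2.45 and UBE2L6 with -1.61. UBA7 had -0.64 (95% interval -0.79 to -0.48, limma adjusted p = 0.00036), under the fold for a call. These 5 comparisons share libraries, among them the parental DMSO pair, and are no independent evidence for each other.

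**Figure D2:**
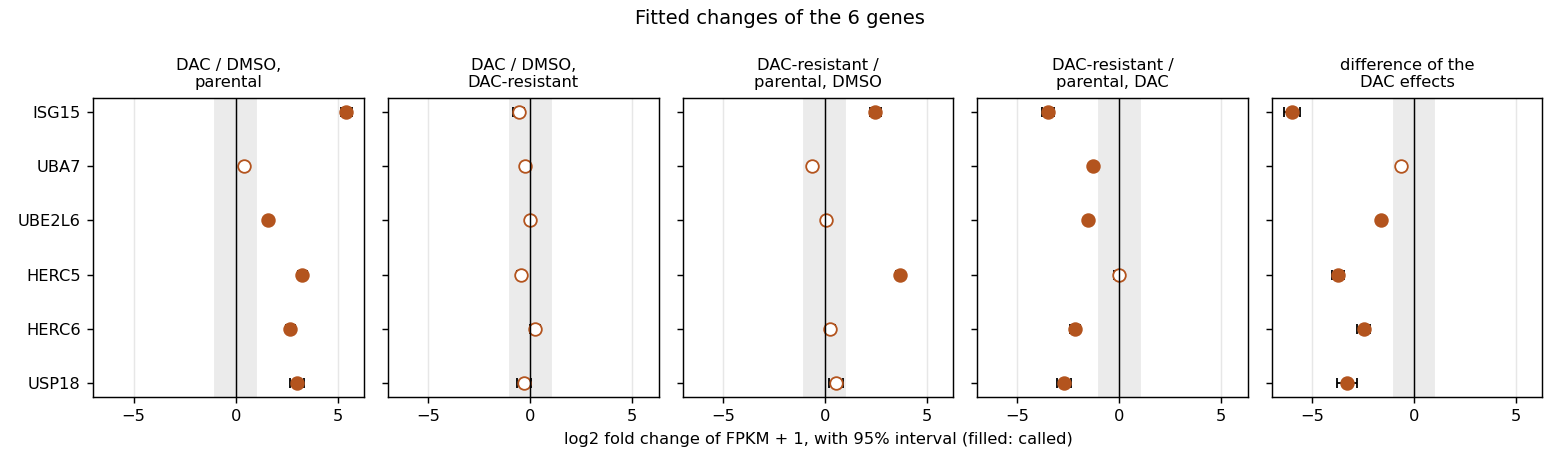
Log2 fold changes of FPKM + 1 (horizontal axis) with 95% intervals for the 6 genes in 5 comparisons, where filled points are called and grey marks changes under 1 in size. DAC called 5 genes in parental and 0 in resistant cells, and only ISG15 and HERC5 were called between the lines with DMSO.

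The composition of the machinery differed between the groups. In parental cells with DMSO, UBA7 and UBE2L6 made up 46.2% and 42.3% of the summed FPKM of the 6 genes (means of 2 libraries) and ISG15 5.61%. Transcripts of the activating and conjugating enzymes thus outnumbered those of the modifier, and ISG15 over UBE2L6 was 0.150 and 0.116. With DAC, ISG15 made up 52.9% and UBA7 10.7%, and ISG15 over UBE2L6 was 2.36 and 2.29. The sum was 69.3 and 67.98 FPKM with DMSO and 377.9 and 403.1 FPKM with DAC. The resistant cells had another make-up, in which HERC5 held 18.4% of the sum with DMSO and 16.1% with DAC, against 0.738% and 3.48% in the parental groups. ISG15 held 25.7% and 21.1% there. The resistant sum was 102.3 and 99.52 FPKM with DMSO and 84.52 and 80.55 FPKM with DAC.

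**Figure D3:**
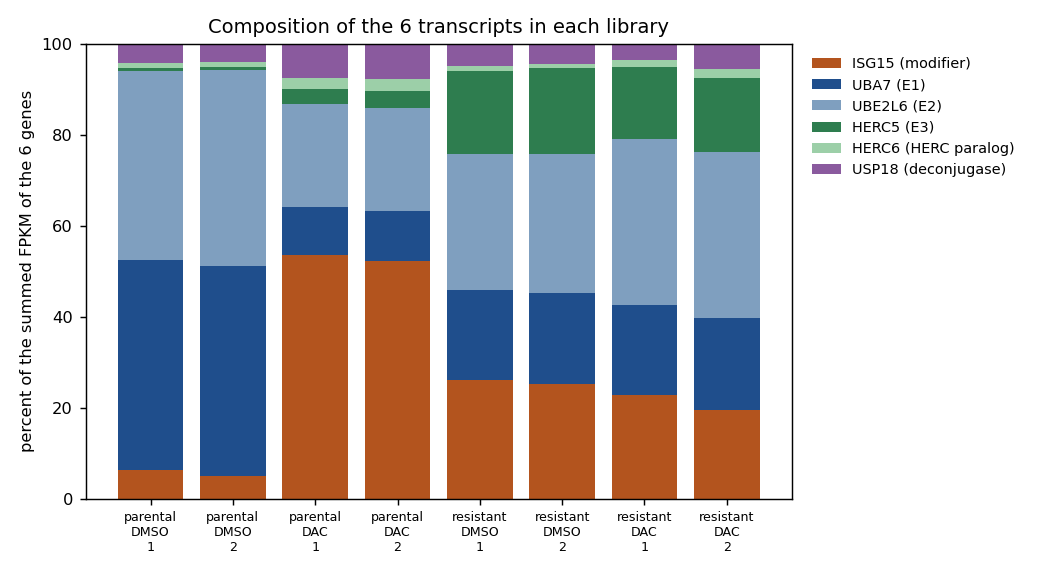
Share of each gene in the summed FPKM of the 6 (vertical axis, percent) in each library. ISG15 took 52.3% to 53.5% in the parental DAC libraries, and HERC5 15.8% to 18.8% in the resistant libraries.

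By mean level, the order in parental cells with DMSO was UBA7, UBE2L6, ISG15, USP18, HERC6, HERC5. With DAC it was ISG15, UBE2L6, UBA7, USP18, HERC5, HERC6, and every neighbouring pair in it had libraries that did not overlap. Both resistant groups had the order UBE2L6, ISG15, UBA7, HERC5, USP18, HERC6. In resistant cells with DAC the neighbours ISG15 (19.2 and 15.7 FPKM) and UBA7 (16.9 and 16.4 FPKM) overlapped. Over the 8 libraries, which share groups and so give a description only, log2 levels of USP18, UBE2L6 and HERC6 had Pearson r of 0.98 to 0.99 with each other. HERC5 had r of 0.70 with ISG15, 0.42 with USP18, 0.41 with HERC6, 0.32 with UBE2L6 and -0.35 with UBA7.

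By the same measure, the genes most like the members' mean profile among 5084 ranked were HR (r = 0.9985), SNHG27, TRIM22, SIGLEC1 and VMP1, over 8 libraries. TRIM22, an interferon-induced TRIM protein, had 1.77 and 1.76 FPKM in the parental DMSO libraries, 27.3 and 29.1 FPKM after DAC, and 3.0 to 4.9 FPKM in resistant cells. The genes closest to single members were looked up after the values had been seen. ISG15 was closest to ADAR, IFI16, IER3, ZFP36L1 and IFIT5. ADAR, the RNA editing enzyme, had 38.4, 103, 59.3 and 52.6 FPKM as group means in the order of parental DMSO, parental DAC, resistant DMSO and resistant DAC. HERC5 was closest to CCND3, a D-type cyclin (r = 0.9996), which had means of 17.4, 33.2, 35.5 and 33.0 FPKM in that order. UNC13D, which takes part in granule release, was next to it with 0.465, 8.66, 9.05 and 8.02 FPKM. HERC6 was closest to COL11A1, MAP3K1, B2M, ZCCHC2 and DUSP1. UBE2L6 was closest to LINC01819, FAM83A, RBM46, MAGEA4 and TDRD6, of which MAGEA4, a cancer-testis antigen, had 0.191 and 17.2 FPKM as parental means and 0.387 and 0.333 FPKM as resistant means. LINC01819, FAM83A, RBM46, MAGEA4 and TDRD6, like HR, SNHG27 and COL11A1, reached 1 FPKM only in the parental DAC libraries. The filter thus admitted them only through the group where they were high, and their closeness is a description only.

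The rest of the ISG15 pathway was described by lists. Of 9 other ligases and cross-reacting deconjugases, all tested, 0 were called with DAC in parental cells, with a median log2 change of 0.16, where 6.66% of all genes were called raised and 2.64% lowered. The closest was TRIM25, a ligase that itself carries ISG15, at 13.4 and 13.1 FPKM with DMSO and 24.1 and 24.5 FPKM with DAC (log2 change 0.83, limma adjusted p = 3.4e-06). USP16, a deubiquitinase that also removes ISG15, had 7.62 and 7.07 FPKM with DMSO and 8.94 and 9.55 FPKM with DAC. The other 4 comparisons called 0 of the 9 as well, and with shares of 0.114% to 9.17% over all genes in each direction this sets the list apart from no other genes.

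Of 18 described ISG15 targets and readers analysed, 17 passed the filter on low values, and 5 were called raised and 0 lowered with DAC in parental cells (median 0.29), beside 6.66% and 2.64% of all genes. IFIT1 had 0.854 and 0.758 FPKM with DMSO and 51.8 and 54.0 FPKM with DAC (log2 change 4.90, limma adjusted p = 3.8e-08). IFIT3, its partner, had a log2 change of 4.62, and the GTPase MX1 had 4.20. MX1 reached 1 FPKM only in the parental DAC libraries (22.5 and 22.6 FPKM). It thus entered the tests and these counts only through the group where it was high. The kinase EIF2AK2 (1.68) and the autophagy receptor SQSTM1 (1.12) were the others called. Between the lines with DMSO, 2 of the 17 were called higher in resistant cells, beside 4.45% of all genes, IFIT1 (log2 change 3.26, limma adjusted p = 2.3e-07) and IFIT3 (3.23). MX1 did not share this pattern, with 0.115 and 0.126 FPKM in resistant cells with DMSO against 0.279 and 0.286 FPKM in parental cells (log2 change -0.20, limma adjusted p = 0.0552). The integrin ITGAL, part of LFA-1, which binds free ISG15, was lower in resistant cells, at 3.63 and 3.76 against 30.6 and 30.8 FPKM (log2 change -2.76, limma adjusted p = 3.1e-07). It was the 1 of the 17 called lower there, beside 4.28% of all genes. ITGB2, the other chain of LFA-1, had a mean of 162 FPKM in resistant against 93.6 FPKM in parental cells (log2 change 0.79, limma adjusted p = 6.9e-06, not called). With DAC in resistant cells 0 of the 17 were called, near the shares of 0.114% and 0.121% over all genes. With DAC in both lines, 6 of the 17 were called lower in resistant cells, beside 9.17% of all genes, and 0 higher. RIGI, a dsRNA sensor that is an ISG15 target, was under the filter, with 0.0893 to 0.802 FPKM.

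Of 5 genes analysed in the interferon receptor branch that acts on the members, 2 were called raised with DAC in parental cells, STAT2 and IRF9, and 0 lowered (median 0.14), beside 6.66% and 2.64% of all genes. STAT2 had 19.9 FPKM in both parental DMSO libraries and 50.9 and 54.4 FPKM with DAC (log2 change 1.36, limma adjusted p = 9.3e-07). IRF9, its partner in binding DNA, had 0.66 and 0.654 FPKM with DMSO and 3.16 and 3.07 FPKM with DAC (log2 change 1.31, limma adjusted p = 7.7e-05). Only its parental DAC libraries reached 1 FPKM, the others having 0.394 to 0.66 FPKM. IRF9 thus entered the tests and these counts only through the group where it was high. With DAC in both lines STAT2 and IRF9 were called lower in resistant cells, beside 9.17% of all genes. Between the lines with DMSO 0 of the 5 were called, beside 4.45% higher and 4.28% lower of all genes, and STAT2 had a log2 difference of 0.42 (limma adjusted p = 0.00015).

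The enzyme families around the members were counted with DAC in parental cells, where the shares over all genes were 6.66% raised and 2.64% lowered. Of 9 E1 enzymes of other modifiers there were 0 (median -0.03). UBA1, the E1 of ubiquitin, had means of 30.8 FPKM with DMSO and 43.3 FPKM with DAC (1.41-fold, log2 change 0.48, limma adjusted p = 0.00011, not called), beside 31.7 and 41.9 FPKM of UBA7 (1.32-fold). Of 31 other E2 enzymes 0 were called (median 0.08), and UBE2L3, the ubiquitin E2 closest to UBE2L6 in name and family, had 35.7 and 36.3 FPKM with DMSO and 36.8 and 37.2 FPKM with DAC. Of 16 other modifiers tested, RPS27A, a ubiquitin fused to a ribosomal protein, was called lowered (log2 change -1.15) and 0 raised. Of 8 deconjugases of other modifiers tested, SENP6, which acts on SUMO chains, was called lowered (-1.11) and 0 raised. HERC1, HERC2 and HERC4, the other HERC genes past the filter, were not called, and HERC2 had a log2 change of 0.59. UBD, the FAT10 modifier that interferon also induces in other cells, had 0 or 1 read in every library.

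**Figure D4:**
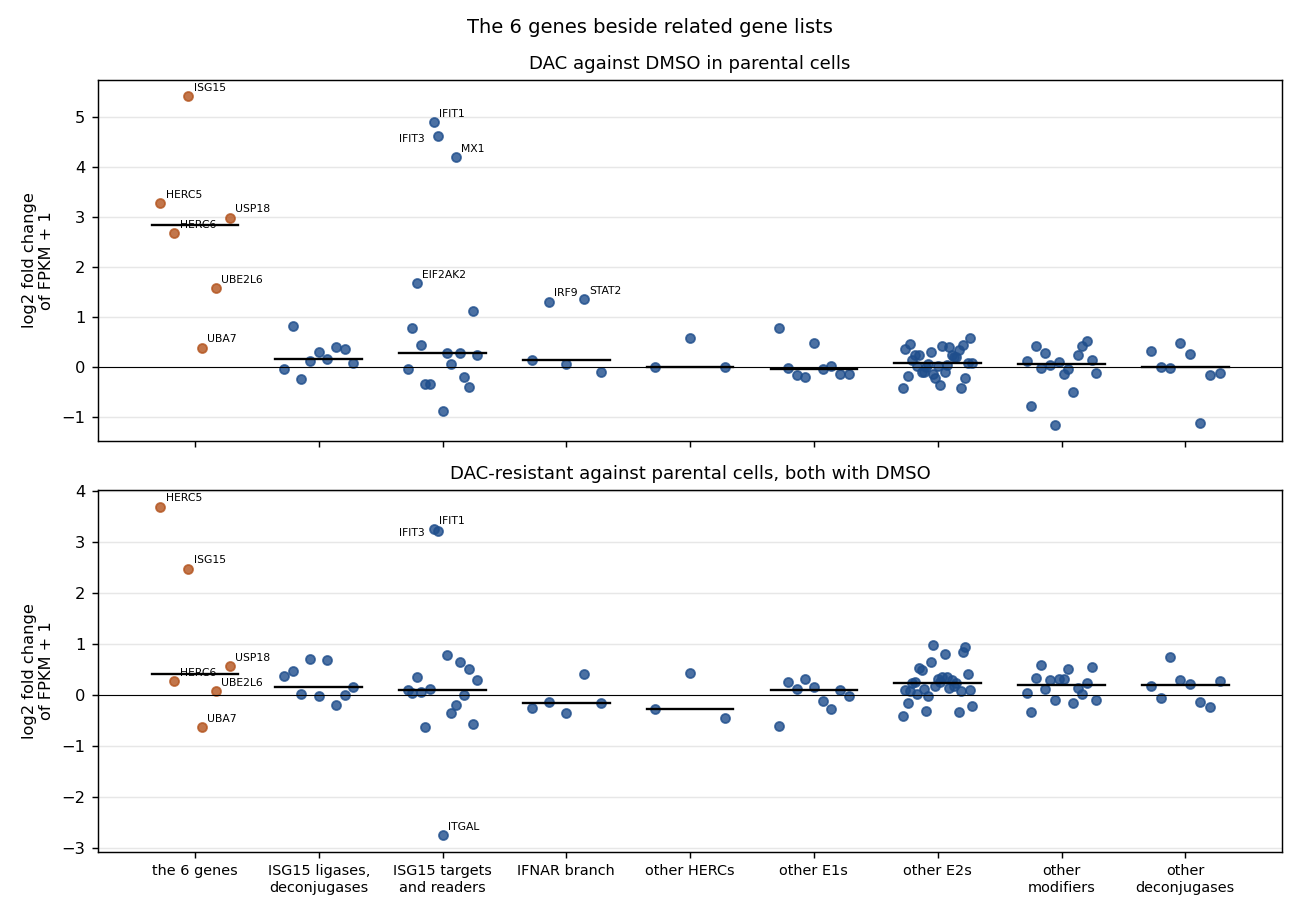
Log2 fold changes of FPKM + 1 (vertical axis) for the 6 genes and 8 related lists with DAC in parental cells (top) and between the lines with DMSO (bottom), where points are genes and lines are medians. With DAC the members' median was 2.84, and that of the 31 other E2 enzymes was 0.08.

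The genes beside the members were looked at for changes along the chromosome. Next to UBE2L6, SMTNL1 rose with DAC in parental cells from a mean of 0.389 to 3.89 FPKM (log2 change 1.81, limma adjusted p = 4e-05). SERPING1, the C1 inhibitor on its other side, had 0.0349 and 0.00456 FPKM with DMSO, from 8 and 1 reads, and 1.71 and 1.46 FPKM with DAC (log2 change 1.34, limma adjusted p = 8.6e-05). SMTNL1 and SERPING1 reached 1 FPKM only in the parental DAC libraries, and so entered the test through the group where they were high. Of all genes tested, 6.66% were called raised in that comparison. PPM1K, the neighbour of HERC6, had log2 changes of 0.52 with DAC in parental cells and 0.30 between the lines with DMSO, neither called. HES4 and AGRN beside ISG15, and INKA1 and TRAIP beside UBA7, were not called in those 2 comparisons. For the difference of the DAC effects HES4 was called (-1.39, limma adjusted p = 0.00304), as were SMTNL1 (-1.5) and SERPING1 (-1.34). In that direction 7.16% of all genes were called. HES4 had means of 0.519 and 1.45 FPKM in the parental DMSO and DAC groups and 1.23 and 0.359 FPKM in the resistant ones, from 10 to 56 reads in a library. The neighbours of USP18 were under the filter, and PYURF beside HERC5 was listed at 0. An antisense RNA that overlaps ISG15 (ENSG00000224969) had 0 to 8 reads in a library, and whether the counting used the strand is not given in the sources used here.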

How the data were processed

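Total RNA was made into mRNA libraries. Per the labels, the authors used cutadapt 1.9.1, HISAT2 2.1.0, SAMtools 1.6 and HTSeq 0.13.5 with hg38. The deposited values are FPKM multiplied by 1000 for 60664 genes and 1264 repeat families, which were not used. After division by 1000, log2(FPKM + 1) of the 14899 genes that reached 1 FPKM in 2 or more of the 8 libraries was fitted as 4 group means with limma 3.58.1 in R 4.3.3, with variances moderated along a trend (4 residual and 2.5 prior degrees of freedom).

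Exon lengths of GENCODE turned 86.8% of values into whole reads (within 0.001 read times the square root of the reads). USP18 came out whole with a length of 3716 bases in place of 4095. These reads give the depth and the voom alternative. USP41, a near-identical copy of part of USP18, may share its reads.

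Genes named are the members, of each list the 2 largest rises and the largest fall called with DAC in parental cells and those a count of 5 or fewer needs, adjacent genes, and the 5 genes most like the members' mean profile among those tested that vary by at least 1 (log2). Other list genes, such as MX1, TRIM25, USP16, UBA1, UBE2L3, HERC2 and RIGI, were named after their values were seen. Alternatives were another pseudocount, other filters, TPM, quantile scaling, voom, a replicate block, only the libraries compared, and leaving out each library. Some list genes are not reported here. Members and lists were chosen with earlier results of these data known. HERC3 has 2 identifiers, of which the expressed row was taken. Promoter windows are from RefSeq (GRCh38.p14), and 4 of 6 genes matched. Replicates are labelled biological, with no word on separate cultures, so that p-values measure the spread between these samples.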

Additional observations from a re-analysis of the deposited data

Results flagged for a closer look

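By limma's test of the difference, the response to DAC differed between the lines at an adjusted p under 0.05 for all 6 genes, each lower in resistant cells as for 4233 of the 14899 genes tested, and by a log2 difference of 1 or more for 5 of them, beside 7.16% of all genes, all but UBA7 (-0.64, limma adjusted p = 0.00036). The size is given on the log2 scale as the effect in DAC-resistant minus that in parental cells. It was -5.98 for ISG15, -3.73 for HERC5, -3.28 for USP18, -2.45 for HERC6 and -1.61 for UBE2L6, with limma adjusted p-values of 1.5e-06, 2.8e-06, 4.1e-05, 2.4e-05 and 4.7e-06. Behind the HERC5 value stand 18.6 ± 0.156 FPKM in resistant cells with DMSO and 13.3 ± 0.0928 FPKM with DAC, against 0.506 ± 0.0974 and 13.6 ± 1.76 FPKM in parental cells (SD, n = 2). For HERC6 the corresponding means were 1.08 and 1.44 FPKM against 0.722 and 10.1 FPKM. The DAC-resistant DMSO level was therefore far from the parental DMSO level for HERC5 and close to it for HERC6.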

How the results depend on the processing

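The number of members called stayed at 4 to 5 with DAC in parental cells, 0 with DAC in resistant cells, 2 between the lines with DMSO, 4 to 5 between the lines with DAC, and 4 to 5 for the difference of the DAC effects. The value of 4 came from the filter of a mean of 5 FPKM, which leaves HERC6 out of the test. Of 469 values of single members under other settings 464 kept their direction and their side of the threshold, and 5 changed sign, none of which had been called. Part of this count was fixed in advance. The log2 change cannot move with another filter, the replicate block, only the libraries compared, or without a library outside the comparison. Such settings can move only the p-value, so their kept directions are no evidence of stability. UBE2L6 with DAC in resistant cells was 0.0023 after rescaling to TPM and -0.06 to 0.01 when single libraries were left out. UBE2L6 between the lines with DMSO was -0.04 after quantile normalization and 0.15 with TPM (limma adjusted p = 0.036). HERC5 between the lines with DAC was 0.09 with TPM and -0.15 to 0.09 when single libraries were left out. The cause was not tested. HERC5, at 3.28 with DAC in parental cells and 3.70 between the lines with DMSO, was 4.50 and 4.96 with a pseudocount of 0.1 and 4.69 and 5.17 with voom on recovered reads, since adding 1 FPKM shrinks the fold of low genes. HERC6 with DAC in parental cells was 2.68, and 3.63 and 3.73 with that pseudocount and with voom. For the difference of the DAC effects, HERC5 went from -3.73 to -4.99 and -5.18, and HERC6 from -2.45 to -3.24 and -3.33. Over all genes, calls in parental cells with DAC numbered 993 raised and 394 lowered, 1444 and 653 with a pseudocount of 0.1, 1418 and 835 with voom, and 332 and 241 with the filter of a mean of 5 FPKM. In resistant cells they numbered 17 and 18, 56 and 51 with a pseudocount of 0.1, 46 and 43 with TPM, and 4 and 2 with the filter of a mean of 5 FPKM. In the TPM setting 1 was added to TPM values, so the relative size of the pseudocount changed together with the scaling. HERC5 with DAC in parental cells was 4.09 there. Which of these changes moved the TPM values was not tested. With the replicate block, the members called numbered 5, 0, 2, 5 and 5 in the same order, and HERC6 between the lines with DMSO went from a limma adjusted p of 0.0462 to 0.0658. Uncalled values at an adjusted p under 0.05 did not all stay there. Without single libraries the highest adjusted p was 0.144 for ISG15, 0.117 for UBA7 and 0.109 for HERC5 with DAC in resistant cells, and 0.189 for HERC6 and 0.0795 for USP18 between the lines with DMSO. Deviations of same-numbered libraries had correlations of -0.022 to 0.02, so no pairing by replicate number was seen in these values. Such correlations cannot show whether same-numbered libraries were prepared together. The 66 to 135 reads of HERC5, HERC6 and ISG15 in the parental DMSO libraries limit the precision of their folds.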
